A study of Mus musculus with 12 samples.

Results

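The genes described here are those of the ubiquitin system in the blood of aged mice: the Trim genes, the other ubiquitin ligases of the Rnf, Cbl, Herc, Nedd4, Ube3, cullin and F-box families, the activating and conjugating enzymes that feed them, and the deubiquitinases of the Usp and Otud families. Members were chosen by gene symbol alone, with Usp18 left out, and 173 of the 8003 genes of the blood table matched. A matching symbol does not show that a gene has the activity of its class. All 173 are mRNA genes with a position in the GRCm38.p6 annotation of RefSeq, and 0 of them are among the 284 genes of the hippocampus table, so nothing is said here of the brain. The table itself holds the genes that the authors had selected as different between the same groups. Nearly every member therefore enters with a lower mean in treated mice, and that direction on its own is not a result.

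The samples were blood from C57BL/6 mice aged 15 months, 3 controls (Ctrl 1, 2 and 3) and 3 of the treated group (Akk 1, 2 and 3), with 1 library per mouse and no transgene or knockout in either group. The labels give the Akk group a membrane protein of *Akkermansia muciniphila*, a mucus-dwelling gut bacterium, with a duration of 8 weeks at one place and of 6 weeks at another. The methods of the study instead describe gavage of antibiotic-pretreated mice with the live bacterium, the pasteurized bacterium or a vehicle of buffer with glycerin. They name male and female mice, and state that RNA came from mice in which the bacterium had not colonized the gut. What the Akk mice received is thus not settled by these sources. Nor is it settled whether these controls had antibiotics and vehicle. Akk is used here only as the label of the group. The labels use the replicate numbers 1, 2 and 3 in both groups but give each mouse a number of its own, and no source pairs a control with an Akk mouse.

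Expression was given as FPKM, the density of sequenced fragments scaled to transcript length and library size, rounded to 2 decimals, so that levels can be compared between genes per length. The number of reads behind a value is unknown. Fold changes are differences between the group means of log2(FPKM + 0.1), Akk minus Ctrl, which understates changes of low genes. They were tested with limma over all 8003 genes, and a gene counted as called when its adjusted p was at most 0.05 and its fold change at least 1.5. A two-sided exact permutation test of 3 mice against 3 cannot give a p below 0.1. In bulk RNA, fewer cells of a type and less RNA per cell cannot be told apart.

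Ctrl 1 stood apart. Among the 6 libraries it was the highest for 169 of the 173 members, the exceptions being Fbxo30, Rnf223, Trim43c and Ube2s. The FPKM of all members summed to 595 in Ctrl 1 against 162.4 and 128.5 for the other controls and 161.3, 103.7 and 118.7 for the Akk mice. The median over the table showed the same step, with 1.41 FPKM in Ctrl 1 and between 0.18 and 0.35 FPKM in the other libraries. For this reason the members' values are also given with every library centred on the median of its table values, which moves all log2 fold changes up by 0.91, and, for most named members, centred without Ctrl 1. Since the table holds selected genes, its median is no neutral reference, and a centred value says only how a gene stood relative to the other genes of the table.

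Ubiquitin is a small protein that is attached to other proteins in a relay: an activating enzyme (E1) loads it, a conjugating enzyme (E2) carries it, and a ligase (E3) selects the target. Chains of different linkage mark proteins for the proteasome or build signalling platforms, and deubiquitinases remove them. In blood leukocytes the system is known above all for tuning the sensing of viral nucleic acids, NF-kB signalling and the threshold of T cell activation. Many Trim proteins, which carry a RING domain, B-boxes and a coiled coil, are induced by interferon and restrict viruses or act on the sensors and adaptors that detect them.

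None of the 173 members was called in either direction, as was true of the whole table, where 0% of genes were called. The study, by contrast, reported 8003 differential genes in blood at the same nominal thresholds, 7966 lower and 37 higher. These counts equal those of the table, so the members were among the genes it called. Here the adjustment ran only over these preselected genes, so the adjusted p is not one over all expressed genes. The smallest adjusted p of a member was 0.487 without scaling and 0.326 after centring. At an unadjusted p under 0.05, limma gave 6 members lower in Akk (Herc6, Rnf135, Rnf213, Trim12a, Trim12c and Trim14) and 0 higher, where the table gave 3.4% lower and 0.05% higher. The values of the groups did not overlap for 28 members that were lower in Akk and 2 that were higher, against 15.4% and 0.175% of the table. After centring, 9 lower members and 2 higher ones (Ube2s and Trim43c) had an unadjusted p under 0.05, against 3.22% and 0.625% of the table, and 11 were lower and 8 higher without overlap, against 4.44% and 4.01%. With centring and without Ctrl 1 these counts were 6 lower and 3 higher, against 3.01% and 1.34%. Without scaling, the members as a whole thus passed these limits about as often as the table did.

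The median log2 fold change of the members was -0.80, beside -0.87 for the table, and after centring it was 0.11 beside 0.04. Level moved with the fold change. The 45 members with a mean FPKM of at least 1 had a median of -1.08, and the 128 below 1 had -0.77, while the table gave -1.11 and -0.78 for the same ranges. Low levels prevailed: 89 had a mean below 0.5 FPKM, 24 a mean below 0.1 FPKM, and 13 were at 0 in at least 1 library.

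The antiviral Trim genes were set against the other members. Of 29 genes on the list, 17 were in the table, and all 17 had a lower mean in Akk. Among those with a mean of at least 0.5 FPKM, Trim12a, Trim12c and Trim14 were lower in every Akk mouse than in any control.

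Trim30a, a negative regulator of NF-kB signalling downstream of Toll-like receptors, had the highest mean of the antiviral Trim genes. It had 21.84, 1.79 and 1.10 FPKM in Ctrl 1, 2 and 3, against 1.18, 1.17 and 1.15 FPKM in Akk 1, 2 and 3. Ctrl 1 was far above the rest, the other 5 libraries were close together, and the groups overlapped. The log2 fold change was -1.54 (SE 0.93, adjusted p = 0.487), and 0.00043 with centring and without Ctrl 1, so the difference in Trim30a rested on Ctrl 1.

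Trim12c, a mouse paralogue of the retroviral restriction factor Trim5, had 10.62, 3.20 and 1.37 FPKM in Ctrl 1, 2 and 3 and 0.97, 0.75 and 0.65 FPKM in Akk 1, 2 and 3. Every Akk library lay below every control library, also among the controls other than Ctrl 1. The group means were 5.06 ± 4.90 and 0.79 ± 0.16 FPKM (SD, n = 3 each). Trim12c had a log2 fold change of -2.08 (SE 0.93), -1.17 (SE 0.29) after centring and -1.07 with centring and without Ctrl 1, with unadjusted limma p of 0.0244, 0.00107 and 0.00271 and adjusted p of 0.487, 0.356 and 0.362.

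Its neighbour Trim12a had 11.52, 2.49 and 1.89 FPKM in the controls and 1.61, 0.79 and 0.77 FPKM in the Akk mice. The groups did not overlap, although Ctrl 3 and Akk 1 were close. Trim12a had a log2 fold change of -1.83 (SE 0.93), -0.92 after centring and -0.80 with centring and without Ctrl 1, and the adjusted p was 0.487, 0.626 and 0.821.

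Trim14, a mitochondrial adaptor of RIG-I signalling that lacks the RING domain, had 3.99, 0.45 and 0.28 FPKM in the controls and 0.20, 0.13 and 0.17 FPKM in the Akk mice. All 3 Akk values were below the lowest control. Trim14 had a log2 fold change of -1.84 (SE 0.91), -0.93 after centring and -0.54 with centring and without Ctrl 1, and the adjusted p was 0.487, 0.825 and 0.999. Reads of Trim14 may be shared with Nans, since 51.1% of its transcript is nearly identical to transcripts of that gene.

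The remaining antiviral Trim genes with a mean of at least 0.5 FPKM overlapped between the groups. Trim30d had 10.04, 0.89 and 0.44 FPKM in the controls and 0.49, 0.38 and 0.64 FPKM in the Akk mice, and Trim30b had 5.57, 0.92 and 0.40 FPKM against 0.74, 0.69 and 0.88 FPKM. Trim34a had 4.93, 1.56 and 0.51 FPKM against 1.14, 0.39 and 0.49 FPKM, and Trim26 had 3.63, 1.45 and 0.98 FPKM against 1.21, 0.77 and 0.65 FPKM. In each of these Ctrl 1 and Ctrl 2 lay above all Akk libraries and Ctrl 3 did not. After centring, the log2 fold changes were -0.65 for Trim30d, 0.20 for Trim30b, -0.36 for Trim34a and -0.04 for Trim26, and with centring and without Ctrl 1 they were -0.05, 0.53, -0.25 and -0.20.

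Trim25, the ligase that activates the RNA sensor RIG-I, went the other way once Ctrl 1 was left out. It had 5.98, 0.50 and 0.43 FPKM in the controls and 1.10, 0.50 and 0.50 FPKM in the Akk mice. On the log2 scale the fold change was -0.72 (SE 0.92, adjusted p = 0.498), but 0.19 after centring and 0.67 with centring and without Ctrl 1, where the unadjusted limma p was 0.0362 and the adjusted p 0.999. Trim41, a ligase of viral nucleoproteins, had 1.87, 0.27 and 0.27 FPKM against 0.23, 0.17 and 0.41 FPKM and overlapped. The direction of Trim41 flipped as well, from -0.86 to 0.06 after centring.

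The other 7 antiviral Trim genes (Trim5, Trim21, Trim35, Trim56, Trim62, Trim65 and Trim69) had means between 0.032 and 0.427 FPKM, and their log2 fold changes were between -1.41 and -0.51. Of these, Trim65 did not overlap between the groups without scaling and Trim5 did not after centring; both were singled out after their values were seen. Of the Trim5 transcript, 66.8% is nearly identical to Trim12c, and 70.5% of Trim34a is nearly identical to Trim34b, so the counting of reads could have moved signal between these genes.

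**Figure D1:**
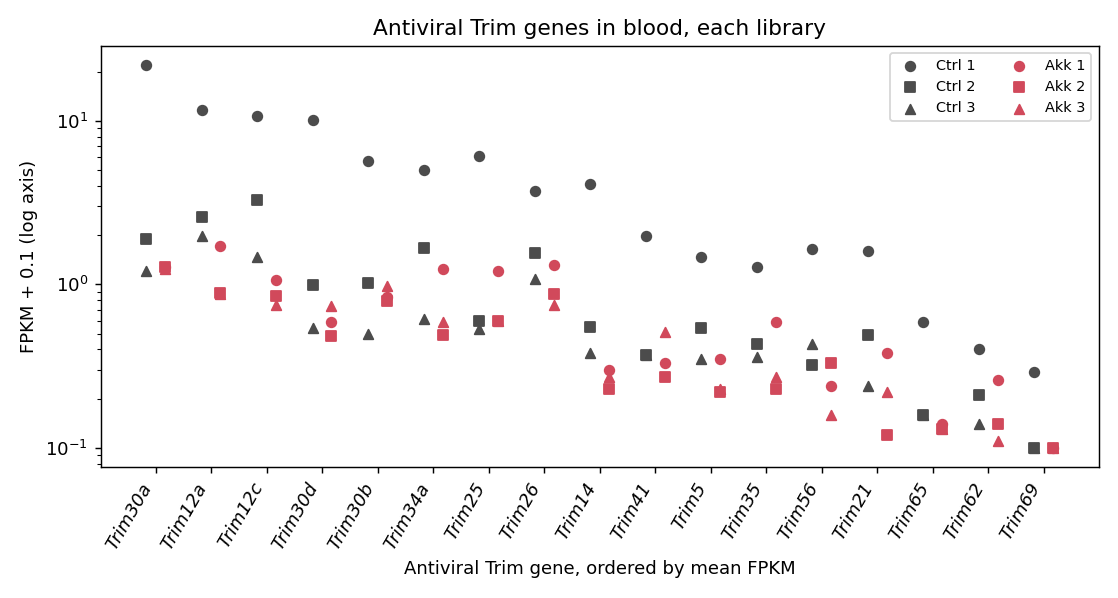
FPKM + 0.1 on a log axis for the 17 antiviral Trim genes in each blood library, ordered by mean FPKM (grey, Ctrl; red, Akk; circle, square and triangle, replicates 1, 2 and 3). The Ctrl 1 circle is the highest point for every gene, and Trim12c, Trim12a and Trim14 are the better-expressed genes whose Akk points all lie below the Ctrl points.

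The antiviral Trim genes as a group had a lower median fold change than the other members, and the size of this difference moved with single libraries. The median log2 fold change was -1.28 for the 17 antiviral Trim genes, -0.80 for the other 156 members and -0.70 for the 13 other Trim genes, beside -0.87 for the table. The antiviral median less the median of the other members was -0.48. It was -0.12 without Ctrl 1, -0.28 without Ctrl 2 and -0.28 without Akk 2, and -0.60 when only the 12 interferon-induced Trim genes were taken. For these 12 genes it was -0.41 without Ctrl 1, an alternative chosen after the data were seen. After centring, the medians were -0.36 for the antiviral Trim genes and 0.12 for the other members, and with centring and without Ctrl 1 they were -0.05 and 0.07. At an unadjusted p under 0.05, 3 of the 17 antiviral Trim genes and 3 of the other 156 members were lower, beside 3.4% of the table, and the groups did not overlap for 4 and 24, beside 15.4% of the table. The share of the other members without overlap thus equalled that of the table. These are descriptions, since the genes are not replicates of the treatment.

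Measured in each library, the median log2(FPKM + 0.1) of the antiviral Trim genes less that of the other members was 1.25, 0.44 and 0.30 for the controls in order, against 0.46, 0.19 and 0.84 for the Akk mice. Ctrl 1 had the largest excess, but Akk 3 was above Ctrl 2 and Ctrl 3, so the groups overlapped. Within the controls, Ctrl 1 exceeded Ctrl 2 by a median of 1.88 on the log2 scale for the antiviral Trim genes, 2.27 for the interferon-induced ones, 1.72 for the other members and 1.68 for the table. Levels differed too, and the antiviral Trim genes had a median mean of 0.87 FPKM against 0.45 FPKM for the other members. For the 13 other Trim genes it was 0.24 FPKM, where the pseudocount of 0.1 shrinks fold changes more. With a pseudocount of 0.01, the median log2 fold change was -1.58 for the antiviral Trim genes and -1.17 for the other Trim genes. Among genes with a mean of at least 1 FPKM, the median log2 fold change was -1.41 for 8 antiviral Trim genes and -1.08 for 37 other members.

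**Figure D2:**
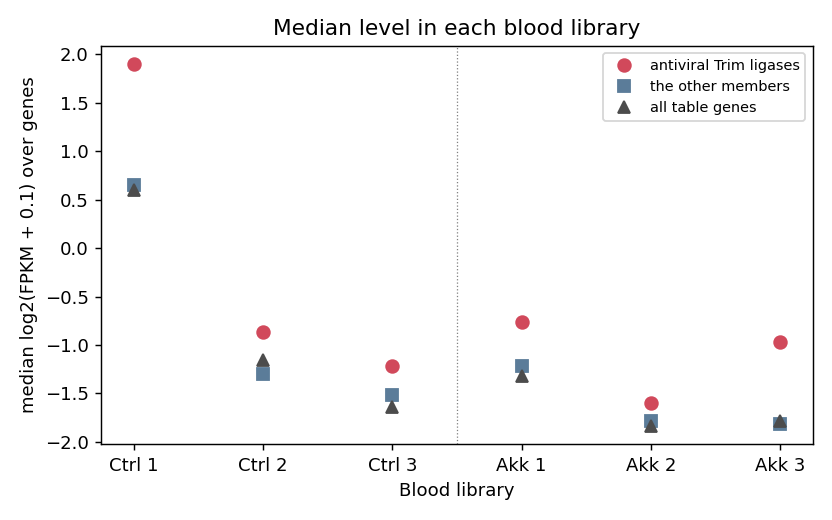
Median of log2(FPKM + 0.1) over the 17 antiviral Trim genes, the 156 other members and all 8003 table genes in each blood library. The antiviral Trim genes sit 1.25 above the other members in Ctrl 1 and between 0.19 and 0.84 above them in the other 5 libraries.

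Some of the antiviral Trim genes also shared features of position and sequence. On chromosome 7 lie 10 Trim members, of which Trim68 and Trim3 are not on the antiviral list. Trim34a, Trim5, Trim12a, Trim12c, Trim30b, Trim30a and Trim30d follow each other there in GRCm38 at chr7:104244448-104507853. Fold changes differed along this cluster: after centring and without Ctrl 1, Trim12a and Trim12c stood at -0.80 and -1.07 while their neighbours Trim30b and Trim30a stood at 0.53 and 0.00043.

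Promoters of interferon-induced genes often carry an interferon-stimulated response element, to which STAT and IRF factors bind. The RefSeq promoter table (GRCm38.p6, 250 bases before to 50 after each start) held 129 of the 173 members and was searched for GAAA, any 2 bases and GAAA again, on either strand. The motif was present for 8 of the 14 antiviral Trim genes with a promoter (57.1%) and for 2 of 115 other members (1.74%, Cul1 and Rnf146), against 4.25% of the table genes and 3.99% of all genes. The stretches around it are shown for the antiviral Trim genes, on the strand of the gene, with the motif or its reverse complement in capitals (overlapping matches are run together):
Trim5, chr7:104288136-104288165, minus strand: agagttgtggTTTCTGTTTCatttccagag
Trim12a, chr7:104315466-104315495, minus strand: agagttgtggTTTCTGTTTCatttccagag
Trim12c, chr7:104353359-104353388, minus strand: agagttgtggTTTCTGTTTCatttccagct
Trim30a, chr7:104465194-104465259, minus strand: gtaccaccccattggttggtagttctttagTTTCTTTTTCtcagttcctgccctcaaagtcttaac
Trim30d, chr7:104507854-104507920, minus strand: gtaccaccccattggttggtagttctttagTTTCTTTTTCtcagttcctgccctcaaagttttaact
Trim34a, chr7:104244457-104244486, plus strand: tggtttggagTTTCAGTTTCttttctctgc
Trim21, chr7:102565447-102565476, minus strand: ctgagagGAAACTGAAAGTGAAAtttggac
Trim26, chr17:36836956-36837031, plus strand: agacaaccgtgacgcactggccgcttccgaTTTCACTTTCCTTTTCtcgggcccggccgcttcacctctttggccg

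The stretch was the same in Trim5 and Trim12a, nearly the same in Trim12c, and Trim30a and Trim30d shared most of theirs. Of the antiviral Trim genes with the motif, all but Trim26 lie on chromosome 7. The share of 57.1% and the medians that follow thus rest largely on related neighbours and do not count independent genes. The 8 antiviral Trim genes with the motif had a median log2 fold change of -1.48, and the 6 with a promoter and no motif had -0.72. With centring and without Ctrl 1, these medians were -0.34 and 0.22. The genes with the motif were also higher, with a median mean of 1.825 FPKM against 0.479 FPKM, and low levels shrink the fold change. Herc6, Rnf213 and Uba7, described below, had a promoter without the motif. In the whole table, 39 of the 270 genes with the motif had an unadjusted p under 0.05 in the lower direction (14.4%), against 161 of the 6084 genes with a promoter and no motif (2.65%). A mean of at least 1 FPKM was reached by 124 of the 270 genes and by 1761 of the 6084. The table holds genes selected on these same groups, so these shares are descriptions, and what lies behind them was not tested. A match is only a match of letters in this window.

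Markers of blood cell types were set beside the members' values. The 4 NK cell markers (Ncr1, Klrb1c, Prf1 and Gzma) summed to 46.81, 17.64 and 8.89 FPKM in the controls and 6.05, 3.68 and 4.04 FPKM in the Akk mice. All 4 were lower in Akk without overlap, their median log2 fold change was -2.11, and it stayed at -1.20 after centring, with or without Ctrl 1. After centring, 3 of the 4 did not overlap. Over the table, 15.4% of genes were lower without overlap without scaling, and 4.44% after centring. The markers come from that same table of selected genes. The 5 monocyte markers summed to 931, 201 and 69.66 FPKM against 121.4, 74.4 and 119.9 FPKM, and the 10 neutrophil markers to 1415, 399.5 and 279.9 FPKM against 144.8, 369.4 and 233.3 FPKM. The median log2 fold change was -1.69 for the monocyte markers (centred -0.77), with 0 lower without overlap, and -1.62 for the neutrophil markers (centred -0.70), with 5 of 10 lower without overlap. The 4 T cell markers in the table, of 7 listed, summed to 12.1, 8.76 and 4.99 FPKM against 5.67, 3.42 and 1.61 FPKM, the 2 of 5 B cell markers to 12.88, 4.95 and 2.76 FPKM against 6.02, 2.17 and 2.29 FPKM, and the 5 platelet markers to 2981, 707.5 and 297.5 FPKM against 380.8, 397.1 and 481.4 FPKM. Their median log2 fold changes were -1.24 for T cell (centred -0.32), -0.66 for B cell (centred 0.25) and -1.12 for platelet markers (centred -0.20), and 2 T cell markers were lower without overlap. With centring and without Ctrl 1, the medians were -0.46 (monocyte), -0.39 (neutrophil), -0.64 (T cell), 0.15 (B cell) and 0.064 (platelet). None of these markers was at 0 in a library. Of 11 red cell markers and 5 ubiquitin genes known from red cell maturation (Trim10, Trim58, Ube2o, Ube2h and Fbxo7), 0 were in the table. The part of leukocyte composition in the members' differences was not tested.

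Ubiquitin-like conjugation by ISG15, an interferon-induced modifier, runs through Uba7 as E1 and, in mice, Herc6 as the main ligase. Herc6 was the member with the lowest unadjusted p after centring. It had 3.14, 0.96 and 0.57 FPKM in Ctrl 1, 2 and 3 and 0.20, 0.25 and 0.21 FPKM in Akk 1, 2 and 3. Every Akk value was below every control value, and the Akk values were close together. The means were 1.56 ± 1.39 and 0.22 ± 0.026 FPKM (SD, n = 3 each).

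Herc6 had a log2 fold change of -2.05 (SE 0.92) without scaling, -1.13 (SE 0.26) after centring and -1.15 with centring and without Ctrl 1. The unadjusted limma p of Herc6 was 0.0266, 0.000695 and 0.00189, and the adjusted p was 0.487, 0.326 and 0.330. Herc6 thus did not pass the threshold, but its value after centring hardly moved with Ctrl 1.

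Uba7 had 12.89, 3.89 and 1.83 FPKM in the controls and 2.21, 1.61 and 2.00 FPKM in the Akk mice, so that Akk 1 and Akk 3 lay above Ctrl 3. Its log2 fold change was -1.20 (SE 0.93, adjusted p = 0.487), -0.28 after centring and -0.20 with centring and without Ctrl 1. The other 2 genes of the list, Ube2l6 and Herc5, were not among the table genes. The modifier gene Isg15 is no member by the rule and was looked at after the values of Herc6 were seen. Isg15 had 200.47, 444.55 and 265.66 FPKM in the controls and 72.07, 109.63 and 75.79 FPKM in the Akk mice, without overlap and with Ctrl 1 as the lowest control. Isg15 had a log2 fold change of -1.77 (SE 1.02, adjusted p = 0.487), -0.85 after centring, where the groups overlapped, and -1.78 with centring and without Ctrl 1.

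Among the 6 E1 genes the median log2 fold change was -0.99, and after centring it was -0.08. Uba1, which loads ubiquitin for most of the cell, had 16.88, 5.19 and 3.79 FPKM in the controls and 2.50, 3.04 and 2.87 FPKM in the Akk mice. The groups did not overlap, also after centring. Uba1 had a log2 fold change of -1.28 (SE 0.94, adjusted p = 0.487), -0.37 after centring (SE 0.31, adjusted p = 0.934) and -0.40 with centring and without Ctrl 1.

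The 16 E2 genes had a median log2 fold change of -0.85 and held the clearest exception among the members. Ube2s, which extends chains on targets of the anaphase-promoting complex so that cells leave mitosis, was the highest of all members by mean FPKM. It had 16.72, 12.96 and 18.93 FPKM in Ctrl 1, 2 and 3 and 51.77, 22.28 and 39.36 FPKM in Akk 1, 2 and 3. All 3 Akk libraries were above all 3 controls, and Ctrl 1 was not the highest control. The means were 16.2 ± 3.02 FPKM in Ctrl and 37.8 ± 14.8 FPKM in Akk (SD, n = 3 each).

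Ube2s had a log2 fold change of 1.15 (SE 0.97), 2.07 (SE 0.49) after centring and 1.43 with centring and without Ctrl 1. The unadjusted limma p of Ube2s was 0.234, 0.000824 and 0.00330, and the adjusted p was 0.487, 0.326 and 0.401. It passed the threshold in a single setting, chosen after the data were seen, with centring and without Ctrl 3 (log2 fold change 2.64, adjusted p = 0.0238). Ube2s lies at chr7:4808014-4812340 in GRCm38, and no other gene of the RefSeq annotation overlaps it.

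Ube2v1, the partner of Ube2n in building K63-linked signalling chains, had 28.71, 10.34 and 5.51 FPKM in the controls and 5.14, 5.97 and 5.57 FPKM in the Akk mice. Its groups overlapped, since Akk 2 and Akk 3 lay above Ctrl 3, and 82.0% of its transcript is nearly identical to the Gm20431 annotation. Ube2d1, a conjugating enzyme used by many RING ligases, had 3.52, 0.78 and 0.78 FPKM in the controls and 0.69, 0.22 and 0.30 FPKM in the Akk mice. Ube2d1 overlapped after centring and not without scaling. Its log2 fold change was -1.60 (SE 0.92, adjusted p = 0.487), -0.68 after centring (SE 0.28, adjusted p = 0.934) and -0.67 with centring and without Ctrl 1.

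**Figure D3:**
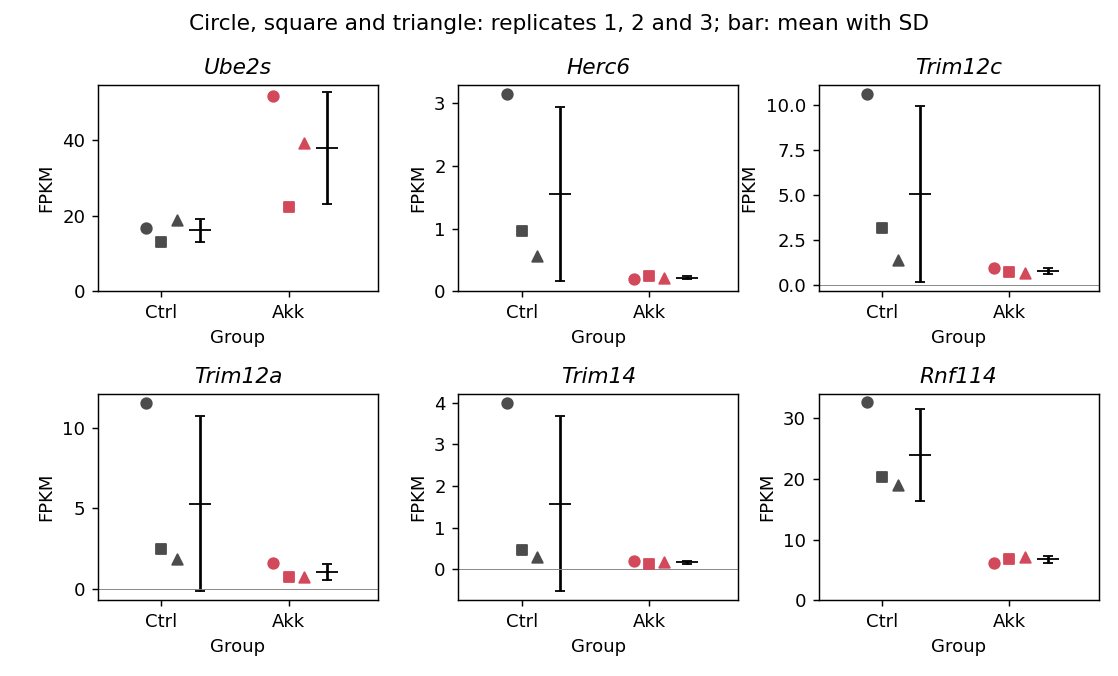
FPKM of Ube2s, Herc6, Trim12c, Trim12a, Trim14 and Rnf114 in each blood library (grey, Ctrl; red, Akk; circle, square and triangle, replicates 1, 2 and 3), with the group mean and SD as a bar. The Akk points lie above the Ctrl points for Ube2s and below them for the other 5 genes.

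The 10 HECT ligases, which form a thioester with ubiquitin before passing it on, had a median log2 fold change of -0.75, and Herc6 was the only one with an unadjusted p under 0.05. Ube3b had 5.27, 1.88 and 1.43 FPKM in the controls and 1.12, 1.26 and 1.17 FPKM in the Akk mice, without overlap. The log2 fold change was -0.98 (SE 0.93, adjusted p = 0.487), -0.07 after centring, where Ube3b overlapped, and -0.19 with centring and without Ctrl 1. Herc4 had 4.20, 0.92 and 0.71 FPKM against 1.19, 0.90 and 0.53 FPKM and overlapped. Herc4 went from -0.71 to 0.21 after centring.

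The 50 RING ligases outside the Trim family had a median log2 fold change of -0.85, and 0.06 after centring. Without scaling 10 of them were lower without overlap, beside 15.4% of the table, and after centring 2 were, beside 4.44%. Rnf114, a ligase linked to the regulation of NF-kB and interferon signalling, had 32.72, 20.26 and 19.01 FPKM in the controls and 6.16, 6.86 and 7.14 FPKM in the Akk mice. The 3 Akk values lay within 1 FPKM of each other and far below each control, but the groups of Rnf114 overlapped after centring. The means were 24.0 ± 7.58 and 6.72 ± 0.50 FPKM (SD, n = 3 each). Rnf114 had a log2 fold change of -1.78 (SE 0.95, adjusted p = 0.487), -0.87 after centring (SE 0.39, adjusted p = 0.934) and -1.29 with centring and without Ctrl 1 (adjusted p = 0.330). Rnf114 overlaps Spata2, another gene of the table, and no source states that reads were counted by strand, so reads of overlapping genes cannot be told apart. The same limit touches 18 other named members that overlap at least 1 annotated RefSeq gene, among them Herc6, Trim12a, Trim12c, Trim14, Trim30a, Trim25 and Rnf213.

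Rnf19b, a ligase known from the cytotoxic function of NK cells, had 37.59, 7.91 and 5.70 FPKM in the controls and 4.23, 4.96 and 3.84 FPKM in the Akk mice. The groups of Rnf19b did not overlap without scaling and did after centring. Its log2 fold change was -1.45 (SE 0.94, adjusted p = 0.487), -0.53 after centring and -0.37 with centring and without Ctrl 1. The 4 NK cell markers above were also lower in every Akk mouse than in any control, and a link between them and Rnf19b was not tested.

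Rnf213, a very large ligase with antimicrobial activity that interferon induces, had 8.54, 0.59 and 0.35 FPKM in the controls and 0.38, 0.16 and 0.27 FPKM in the Akk mice. Akk 1 lay just above Ctrl 3, so the groups overlapped without scaling and not after centring. Rnf213 had a log2 fold change of -1.95 (SE 0.92, adjusted p = 0.487), -1.04 after centring (adjusted p = 0.934) and -0.39 with centring and without Ctrl 1, so most of the centred difference in Rnf213 came with that library. Rnf135, the RIG-I ligase also known as Riplet, and Rnf34 were singled out after their values were seen. Rnf135 had 0.40, 0.15 and 0.11 FPKM in the controls and 0, 0.02 and 0.02 FPKM in the Akk mice. Its unadjusted limma p of 0.00840 was the lowest of the members without scaling, with an adjusted p of 0.487. The Akk values of Rnf135 are within 2 steps of the file's rounding from 0, and its groups overlapped after centring (log2 fold change -0.48). Rnf34 had 3.25, 0.52 and 0.33 FPKM against 0.29, 0.22 and 0.13 FPKM, without overlap with or without centring, and its centred log2 fold change was -0.74 (adjusted p = 0.934).

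The 13 Trim genes outside the antiviral list had a median log2 fold change of -0.70. Trim8, a ligase of cytokine signalling, had 8.55, 1.58 and 1.08 FPKM in the controls and 1.24, 0.96 and 1.07 FPKM in the Akk mice. On the log2 scale the fold change was -1.12 (SE 0.93, adjusted p = 0.487) and 0.00082 with centring and without Ctrl 1. Trim11 had 3.35, 0.68 and 0.25 FPKM against 0.56, 0.54 and 0.42 FPKM and went from -0.70 to 0.21 after centring. The groups of both overlapped.

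Trim43c and Rnf223 were, with Ube2s, the 3 members with a higher mean in Akk, but both were barely above 0. Trim43c had 0.02, 0 and 0 FPKM in the controls and 0.08, 0 and 0.06 FPKM in the Akk mice, and nearly all of its transcript is shared with Trim43a and Trim43b. For Rnf223 the file lists 0 in all controls and 0.03, 0.02 and 0.01 FPKM in Akk 1, 2 and 3, so no fold is given. The groups of Trim43c did not overlap after centring, and at such levels the centred value follows the library median.

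The 7 cullins are scaffolds that hold a substrate receptor on one side and a RING protein on the other, and the F-box proteins are the receptors of the Cul1 complexes. The cullins had a median log2 fold change of -0.71 and the 23 F-box genes one of -0.73, and 0 of either class had an unadjusted p under 0.05 without scaling or after centring. Cul3 had 5.01, 1.05 and 1.04 FPKM in the controls and 1.18, 0.82 and 0.69 FPKM in the Akk mice, and Cul1 had 4.95, 1.10 and 0.74 FPKM against 0.87, 0.53 and 0.50 FPKM. Both overlapped, and after centring only Cul1 did not, with a centred log2 fold change of -0.35 (SE 0.26, adjusted p = 0.934).

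Fbxw2 had 6.52, 3.99 and 3.98 FPKM in the controls and 2.18, 2.66 and 2.18 FPKM in the Akk mice, and Fbxw5 had 5.04, 1.13 and 0.95 FPKM against 0.64, 0.72 and 0.88 FPKM. Neither overlapped without scaling, and both did after centring. The log2 fold change was -0.98 (SE 0.93, adjusted p = 0.487) for Fbxw2 and -1.16 (SE 0.92, adjusted p = 0.487) for Fbxw5, and after centring -0.07 and -0.25. With centring and without Ctrl 1 these were -0.50 and -0.18. Fbxo30, singled out after its values were seen, was the member in which Ctrl 2 was highest. It had 0.84, 0.98 and 0.81 FPKM in the controls and 0.33, 0.36 and 0.29 FPKM in the Akk mice, without overlap. Fbxo30 had a log2 fold change of -1.19 (SE 0.92, adjusted p = 0.487), -0.28 after centring, where the groups overlapped (adjusted p = 0.938), and -0.97 with centring and without Ctrl 1 (adjusted p = 0.519).

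The genes classed by symbol as deubiquitinases were 26 Usp and 5 Otud genes. Usp6nl and Usp39 are among them by name alone, and not every gene so named need be an active deubiquitinase. The Usp genes had a median log2 fold change of -0.77, and 0.14 after centring, and 0 of them had an unadjusted p under 0.05 without scaling or after centring. Usp32 had 5.06, 1.14 and 1.24 FPKM in the controls and 0.99, 1.03 and 1.14 FPKM in the Akk mice, where Akk 3 equalled Ctrl 2. Usp19, a deubiquitinase anchored in the endoplasmic reticulum, had 3.42, 1.20 and 1.21 FPKM in the controls and 0.70, 0.85 and 0.54 FPKM in the Akk mice, without overlap. The log2 fold change was -0.83 (SE 0.92, adjusted p = 0.487) for Usp32, which turned to 0.08 after centring, and -1.21 (SE 0.92, adjusted p = 0.487) for Usp19. Usp19 had -0.29 after centring, where its groups overlapped, and -0.48 with centring and without Ctrl 1.

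Of the 5 Otud genes, whose median log2 fold change was -0.65, Otud7b stood out. Otud7b, also known as Cezanne, removes K11-linked chains and restrains NF-kB signalling. It had 14.67, 2.66 and 2.16 FPKM in the controls and 1.47, 1.60 and 1.13 FPKM in the Akk mice, without overlap with or without centring. Otud7b had a log2 fold change of -1.60 (SE 0.93, adjusted p = 0.487), -0.69 after centring (SE 0.31, adjusted p = 0.934) and -0.50 with centring and without Ctrl 1. Otud6b had 1.17, 0.22 and 0.27 FPKM against 0.39, 0.21 and 0.17 FPKM and overlapped, and its centred value was 0.29.

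**Figure D4:**
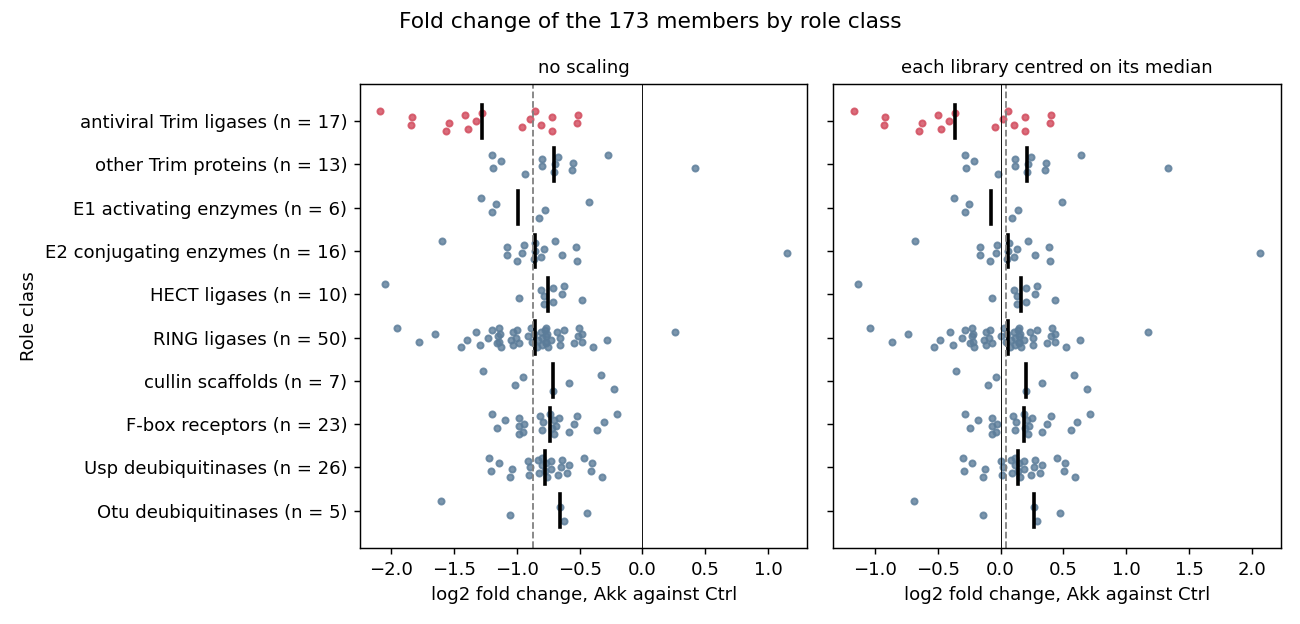
Log2 fold change of each of the 173 members by role class, without scaling (left) and with each library centred on its median (right), with the class median as a black bar and the table median as a dashed line. The antiviral Trim genes have the lowest class median on both sides (-1.28 and -0.36), and Ube2s is the highest point (1.15 and 2.07).

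Members were also grouped by pathway. Of 23 listed genes of innate sensing and NF-kB signalling, 14 were in the table, at a median of -1.01 on the log2 scale, and 1 of them (Rnf135) had an unadjusted p under 0.05. The median was -0.94 for 6 of 13 cell cycle genes, among them Ube2s, -0.81 for 8 of 14 DNA damage genes, -0.83 for 8 of 13 genes acting on chromatin and -0.78 for 7 of 8 genes that restrain T cell activation, such as Cbl and Cblb. After centring, the medians were -0.09 for innate sensing, -0.02 for the cell cycle, 0.11 for DNA damage, 0.08 for chromatin and 0.13 for T cell restraint. None of the 4 lists after innate sensing had a member with an unadjusted p under 0.05 in the lower direction. Of 89 further ubiquitin genes outside the rule, 53 were in the table, all with a lower mean in Akk, with a median of -0.86 and 0 at an unadjusted p under 0.05. After centring their median was 0.06, and 2 (Dtx3l and Birc2, named after their values were seen) had an unadjusted p under 0.05, both in the lower direction. Over the table, 3.4% of genes were lower at that limit without scaling and 3.22% after centring. A lower mean was found for 7966 of the 8003 table genes, so that direction is set by the selection.

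When Ctrl 1 was left out of the centred comparison, some named members kept their value and others did not. Herc6, Trim12c and Trim12a stayed at -1.15, -1.07 and -0.80, Rnf114 went further down to -1.29, and Ube2s stayed up at 1.43. Trim14 and Rnf213 moved to -0.54 and -0.39, and Trim30a to 0.00043. None of these values passed the threshold without Ctrl 1, where the smallest adjusted p of a member was 0.330. Trim12a, Trim12c, Rnf114, Rnf213 and Ube2s had been named partly for a small p in these same data. The fit without Ctrl 1 uses the same other mice, so a kept value is no independent support.

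**Figure D5:**
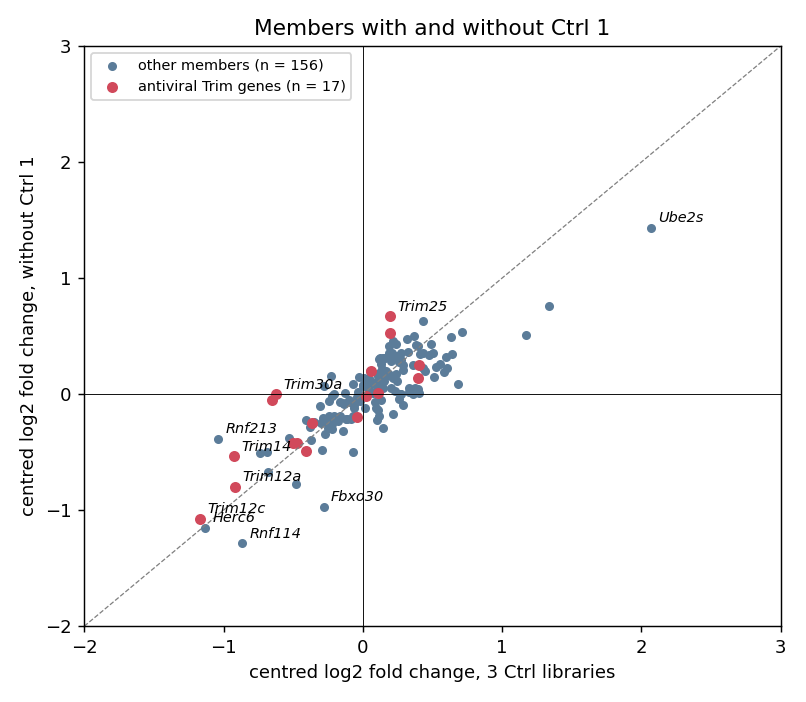
Centred log2 fold change of the 173 members with all 3 Ctrl libraries (x axis) and without Ctrl 1 (y axis); red, antiviral Trim genes; dashed line, equal values. Herc6, Trim12c and Trim12a lie near the line at about the same negative values, Trim30a and Rnf213 lie above it, and Ube2s is the highest member on both axes.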

How the data were processed

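Blood RNA of 3 Ctrl and 3 Akk mice was enriched with oligo(dT) beads and sequenced on the BGISEQ-500. For each tissue the authors deposited a table of FPKM with 2 decimals that covers the genes they had selected. The methods of the study name HISAT2, Bowtie2 and RSEM, whereas the submitters' processing notes name TopHat2, Cufflinks and the build GRCm38. All columns were mapped to samples by their labels.

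From these values log2(FPKM + 0.1) was computed and Akk was set against Ctrl by limma 3.58.1 (R 4.3.3), using its intensity trend, no scaling and Benjamini-Hochberg adjustment over all 8003 genes. The limma step was run on simulated data with known changes and noise drawn separately for each gene. The simulation held no shift of a whole library, as in Ctrl 1, and no selection of genes. It therefore does not show how the fit behaves under these. Adjusted p-values in the text come from these limma fits. In the fit without Ctrl 1, 2 controls remained. Positions and promoters came from RefSeq (GRCm38.p6) and near-identical transcripts from blastn 2.17.0 against GENCODE (at least 95% identity over at least 50% of the length). Python 3.11.15, pandas 2.3.3, numpy 2.4.6 and matplotlib 3.10.9 were used. The depth behind each value is unknown, so precision is limited by how few mice there were.

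The members, lists and tests were chosen with earlier results of these data known. Named members were the antiviral Trim genes with a mean of at least 0.5 FPKM, the ISG15 conjugation genes, the 2 highest of each role class, the 6 with the smallest unadjusted p with and without centring among those with a mean of at least 1 FPKM, the red cell genes on the list, and up to 5 that were higher in Akk (33 in all). Alternatives were pseudocounts of 1 and 0.01, a minimum mean of 1 FPKM, centring, quantile normalization, no trend, the replicate number as a block, other fold thresholds and each library left out in turn. The samples share a replicate number across groups, but no source pairs the mice by it, so the numbers were not used as pairs. The deviations of same-numbered libraries correlated at 0.036, -0.011 and -0.096. With so few libraries, these correlations can neither show nor exclude a pairing. Protein sequences were not used here.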

Additional observations from a re-analysis of the deposited data

How the results depend on the processing

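The count of 0 called members held under every setting but one: with centring and without Ctrl 3 (chosen, like the other combinations of centring with a left-out library or a block, after the data were seen), 1 member, Ube2s, was called higher, so this count ranged from 0 to 1 over the left-out libraries. At an unadjusted p under 0.05 the count of lower members was 6 as reported, 3 with a pseudocount of 1, 2 with a minimum mean of 1 FPKM and 11 with the replicate block, which gave 0 called members. It ranged from 1 (without any one Akk library) to 27 (without Ctrl 3), with 3 without Ctrl 2. The count of higher members was 0 as reported, 2 after centring, 3 after quantile normalization, 1 without Ctrl 1, 4 with centring and the block, and 1 to 6 with centring and a left-out library. No source pairs the mice by replicate number. The antiviral difference stayed negative in each alternative run, and was -0.20 with a pseudocount of 1 and -0.29 after quantile normalization. Most class medians turned with scaling; the antiviral Trim median stayed negative (-0.36 after centring, -0.18 after quantile normalization), and of these scalings E1 turned only under quantile normalization. After centring the medians were 0.11 for all members, 0.21 for the other Trim genes, -0.079 for E1, 0.061 for E2, 0.17 for HECT, 0.061 for RING, 0.20 for cullins, 0.18 for F-box, 0.14 for Usp and 0.26 for Otud genes. After quantile normalization they were 0.10 for all members, 0.055 (E1), 0.19 (E2), 0.11 (HECT), 0.070 (RING), 0.14 (cullins), 0.057 (F-box), 0.14 (Usp) and 0.18 (Otud). With centring and without Ctrl 1 they were -0.053 (E1), 0.068 (E2), 0.16 (HECT), 0.054 (cullins), 0.11 (F-box), 0.15 (Usp) and 0.25 (Otud). With a minimum mean of 1 FPKM, the Otud genes kept only Otud7b, at -1.60. Among named members the direction turned after centring for Herc4 (0.21), Otud6b (0.29), Trim11 (0.21), Trim25 (0.19), Trim30b (0.20), Trim41 (0.058) and Usp32 (0.085). After quantile normalization it turned for these (0.38, 0.29, 0.36, 0.38, 0.37, 0.10 and 0.25) and for Cul3 (0.16), Fbxw2 (0.16), Trim26 (0.14), Trim8 (0.0087), Ube2v1 (0.12) and Ube3b (0.10). With centring and without Ctrl 1 it turned for Cul3 (0.020), Herc4 (0.29), Otud6b (0.25), Trim11 (0.46), Trim25 (0.67), Trim30a (0.00043), Trim30b (0.53), Trim41 (0.20), Trim8 (0.00082) and Usp32 (0.088). Without scaling, leaving out each library gave ranges that crossed 0, all by the fit without Ctrl 1, for Herc4 (-1.17 to 0.038), Otud6b (-0.99 to 0.0032), Trim11 (-1.44 to 0.21), Trim25 (-1.34 to 0.42) and Trim30b (-1.47 to 0.28). Hippocampal alternatives were not run, as that table holds 0 members. The causes of these shifts were not tested. Depth is unknown, and 3 mice per group limit what could be called.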
